A study of Solanum lycopersicum with 2 samples.

Results

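Transcript levels of 10 photoreceptor and light signalling genes were examined in young tomato leaf, out of 34725 gene models measured. The set holds the phytochrome genes PHYA, PHYB1, PHYB2, PHYE and PHYF, the cryptochrome genes CRY1a and CRY2, and the signalling genes HY5, DDB1 and DET1. Members were taken by gene identifier, and all 10 were rows of the table. The table itself carries no gene names, so the names are those of the list that defined the set. As a partial check, the RefSeq table for assembly SLM_r2.1 held all 10 symbols, each on the chromosome that the member's identifier gives. Identifiers could not be matched between the tables.

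The study manipulated SlCycB2, a B-type cyclin gene, in Solanum lycopersicum cultivar Ailsa Craig (AC). One RNA library came from SlCycB2 RNAi plants, in which the gene is meant to be silenced, and 1 from SlCycB2-OE plants, labelled as overexpressing it; these are called RNAi leaf and OE leaf. Both were made from young primary leaf of mature plants, and a library of unmodified plants was not analysed here. Which promoters drove the constructs, how many lines were used and how many plants were pooled is not given in the sources used here. A difference between the libraries can therefore not be assigned to either manipulation, and a single library per group gives neither a replicate error nor a test. SlCycB2 itself was not checked, since no identifier could be matched to its name.

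Plants read light through families of photoreceptors. Phytochromes sense red and far-red light and switch between an inactive and an active form, whereas cryptochromes sense blue and ultraviolet-A light. Active photoreceptors restrain a degradation machinery that otherwise removes transcription factors such as HY5, a bZIP protein that turns on light-responsive genes. DDB1 and DET1 belong to that machinery as partners of a cullin ubiquitin ligase, and tomato mutants in either gene are known for dark, highly pigmented fruit.

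Levels are given as RPKM, read numbers scaled to gene model length and library size, which allows levels of different genes to be set side by side. Differences are given as log2((OE + 1) / (RNAi + 1)) with a pseudocount of 1 RPKM, which understates the difference of low genes, and were computed among the 19466 genes with a mean of at least 1 RPKM. All 10 members were among them.

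Every member was detected in both libraries, and the order of levels was nearly the same in each. RPKM ran from 1.16 for PHYB2 to 25.95 for CRY1a in RNAi leaf, a 22.4-fold span, and from 2.28 to 33.08 for the same genes in OE leaf, a 14.5-fold span. The cryptochromes were the most abundant members in both libraries, and HY5, PHYF and PHYB2 the least. Only 2 pairs of neighbours in the order exchanged places, DDB1 with PHYA and DET1 with PHYE. Without replicates, none of these neighbouring levels can be separated by its spread.

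**Figure D1:**
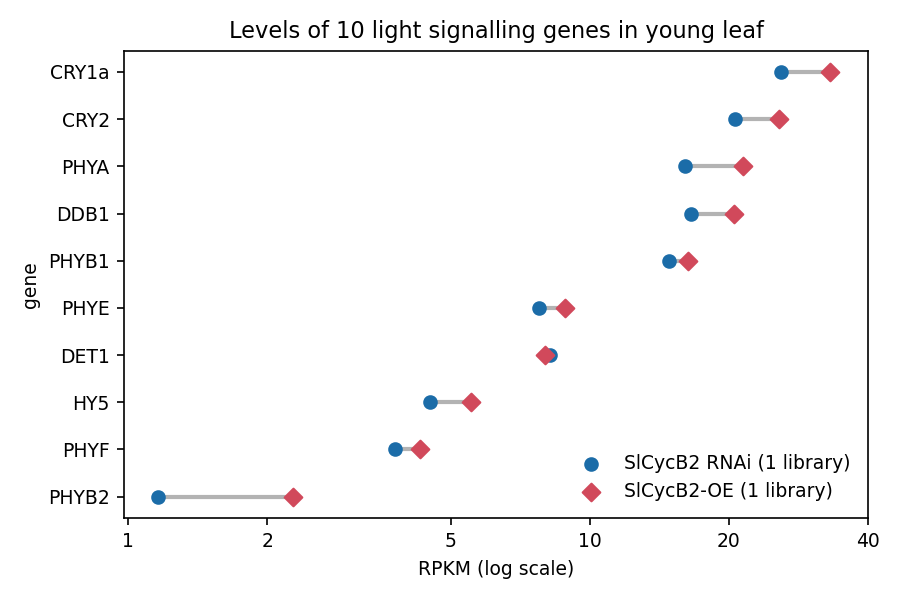
Level of each member in RPKM on a log axis, with 1 point per library and genes ordered by mean level. OE leaf lies to the right for 9 of 10 genes and overlaps RNAi leaf for DET1, at 8.21 and 8.01 RPKM.

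None of the 10 members was at least 2-fold apart between the libraries. Of all compared genes 4.52% were, with 2.60% higher and 1.92% lower in OE leaf (506 and 373 genes). That balance turned with the scaling, to 375 higher and 442 lower with a trimmed mean of ratios and 369 and 482 when centred on the median gene. A count of 0 among 10 is near the general share. In RPKM, 9 members were higher in OE leaf and 1 was lower, and the median member was 23.7% higher. Across all compared genes 67.8% were higher in that library, so a majority in this direction was general. The median log2 difference was 0.27 for the members and 0.13 for all compared genes. Scaling by a trimmed mean of the ratios lowered log2 ratios by 0.15 before the pseudocount, and then 8 members were higher and 2 lower, against 49.9% of all compared genes higher. The median of the members was then 0.14. With a pseudocount of 5 on the deposited values, the medians were 0.20 for the members and 0.09 for all compared genes.

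PHYA (Solyc10g044670.1.1, chromosome 10), the phytochrome that accumulates in darkness and responds to very weak and to far-red light, was at 16.05 RPKM in RNAi leaf and 21.46 RPKM in OE leaf. It was higher in OE leaf by 33.7%, a log2 difference of 0.40. Among all compared genes that difference stood at percentile 80.8, and 15.5% of the 4062 genes with a mean level within 1.5-fold of PHYA had one as high. It was the second in size of the 10 members, yet well inside the range of genes at its level.

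PHYB1 (Solyc01g059870.2.1, chromosome 1) encodes a main receptor for red light in tomato seedlings. Its level was 14.82 RPKM in RNAi leaf and 16.34 RPKM in OE leaf. The log2 difference of 0.13 was almost that of the median gene, and it turned to -0.0026 once centred on that median and to -0.012 with the trimmed mean. Its sign thus depended on the scaling, and its size was near 0 relative to other genes.

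PHYB2 (Solyc05g053410.2.1, chromosome 5), a close relative of PHYB1 with a partly overlapping role, was the least abundant member at 1.16 RPKM in RNAi leaf and 2.28 RPKM in OE leaf. The ratio of 1.97 was the largest of the set, and rounding of the deposited values alone leaves it between 1.95 and 1.98. With the pseudocount the log2 difference was 0.60, so that PHYB2 was the only member past a 1.5-fold limit, which 14.0% of all compared genes passed, 9.37% on the higher side. It fell short of that limit with a pseudocount of 5 (0.24), after centring on the median (0.47) and after the trimmed mean (0.50), and stayed past it with a pseudocount of 0.1 (0.92) and after rescaling to the same RPKM sum (0.61). At its level the central 95% of genes spanned -1.40 to 1.31 on the log2 scale, and 16.3% had a difference as high. How reads matching more than 1 place were counted is not given, so reads shared between PHYB1 and PHYB2 could affect both values.

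PHYE (Solyc02g071260.2.1, chromosome 2) and PHYF (Solyc07g045480.2.1, chromosome 7), the remaining phytochromes, differed little. PHYE was at 7.75 RPKM in RNAi leaf and 8.84 RPKM in OE leaf, and PHYF at 3.78 and 4.28 RPKM. Their log2 differences of 0.17 and 0.14 were close to the medians of genes at their levels, which were both 0.17.

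**Figure D2:**
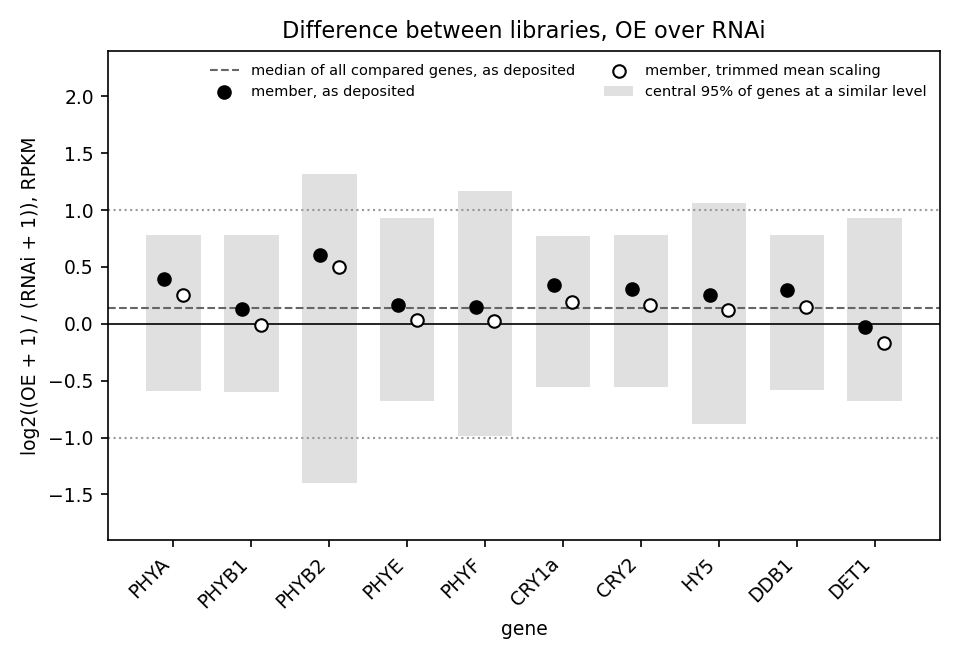
Log2 difference of each member, overexpression over RNAi, as deposited (filled points) and with trimmed mean scaling (open points). Grey bars give the central 95% of compared genes with a mean RPKM within 1.5-fold of the member, the dashed line the median of all compared genes, and dotted lines the 2-fold limits. All members lie inside their bar, and PHYB2 has the highest value at 0.60.

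Summed over the 5 genes, phytochrome transcripts reached 43.56 RPKM in RNAi leaf and 53.2 RPKM in OE leaf, a ratio of 1.22. Their composition, which does not depend on how a library is scaled, was similar in both. PHYA made up 36.8% of the sum in RNAi leaf and 40.3% in OE leaf. PHYB1 made up 34.0% and 30.7%, so that PHYA and PHYB1, close to each other in RNAi leaf, stood farther apart in OE leaf. PHYE contributed 17.8% and 16.6%, PHYF 8.68% and 8.05%, and PHYB2 2.66% and 4.29%. The ratio of PHYA to PHYB1 was 1.08 in RNAi leaf and 1.31 in OE leaf, and that of PHYB1 to PHYB2 was 12.8 and 7.17.

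**Figure D3:**
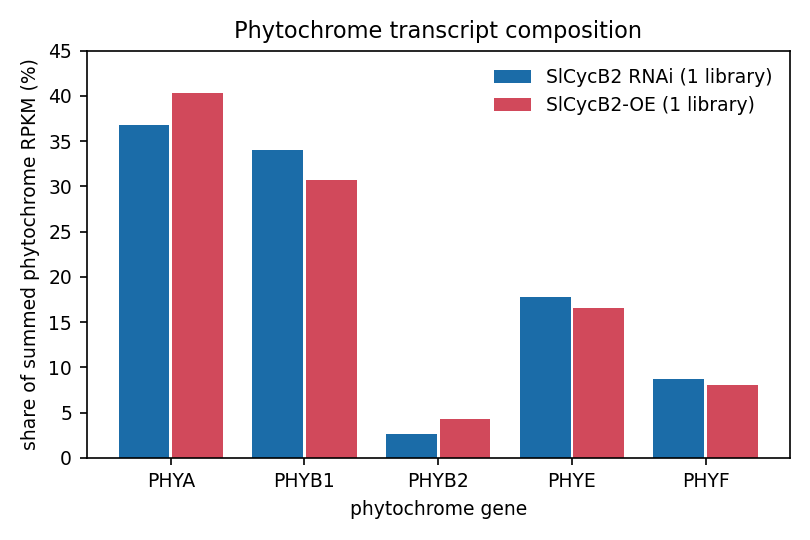
Share of each phytochrome gene in the summed phytochrome RPKM, in percent, with 1 bar per library. PHYA is the largest share in both, at 36.8% and 40.3%, and PHYB2 the smallest, at 2.66% and 4.29%.

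CRY1a (Solyc04g074180.2.1, chromosome 4), a cryptochrome that mediates blue light responses of seedlings and pigmentation, was at 25.95 RPKM in RNAi leaf and 33.08 RPKM in OE leaf. It was 27.5% higher there, a log2 difference of 0.34 at percentile 75.5 of all compared genes. CRY2 (Solyc09g090100.2.1, chromosome 9), a cryptochrome known in tomato for effects on pigments and flowering time, was at 20.6 and 25.75 RPKM, a log2 difference of 0.31 at percentile 72.5. Both cryptochromes were thus higher by a similar factor, and the ratio of CRY1a to CRY2 was 1.26 in RNAi leaf and 1.28 in OE leaf. Phytochrome to cryptochrome RPKM, summed over genes, was 0.94 and 0.90.

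HY5 (Solyc08g061130.2.1, chromosome 8) was at 4.5 RPKM in RNAi leaf and 5.54 RPKM in OE leaf, a log2 difference of 0.25. Of the 4417 genes at its level, 39.8% had a difference as high. HY5 was thus one of the lower members, with a difference close to that of other genes at its level. Its activity is known to be set largely by protein stability, which RNA levels do not show.

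DDB1 (Solyc02g021650.2.1, chromosome 2) and DET1 (Solyc01g056340.2.1, chromosome 1), which work in the same complex, had log2 differences of opposite sign. DDB1 was at 16.56 RPKM in RNAi leaf and 20.57 RPKM in OE leaf, a log2 difference of 0.30. DET1 was at 8.21 and 8.01 RPKM, a log2 difference of -0.03, and was the only member lower in OE leaf. After the trimmed mean these log2 differences were 0.15 and -0.17, so that DET1 was lower and DDB1 higher on both scales. The ratio of DDB1 to DET1 was 2.02 in RNAi leaf and 2.57 in OE leaf. Neither gene stood out at its level as deposited. Of genes at the level of DDB1, 52.4% lay at least as far from their median, and 46.1% did so at the level of DET1.

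Ratios between members within a library were then compared, since they are free of library scaling. They were taken from RPKM without a pseudocount. PHYB2, at 1.16 and 2.28 RPKM, thus entered each of its pairs with a log2 difference of 0.97 rather than 0.60. Among all 45 pairs, the log2 change of the ratio from RNAi to OE leaf had a median size of 0.17, and 30 pairs changed by less than 1.2-fold. The pairs share genes and are not independent. Pairs of other genes were not computed, so whether this count is usual is unknown. The 9 pairs with PHYB2 changed by 0.56 to 1.01 and included the largest change, that of PHYB2 to DET1, whose ratio was 0.14 in RNAi leaf and 0.28 in OE leaf. Without PHYB2 the largest was that of PHYA to DET1, at 0.45. The 8 other members, each set over DET1, gave log2 changes of 0.18 to 0.45. CRY1a, CRY2, HY5 and DDB1, grouped after their values were seen, changed little in proportion, with log2 changes of at most 0.05 over their 6 pairs. PHYB1, PHYE and PHYF, grouped in the same way, also changed by at most 0.05 over 3 pairs.

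**Figure D4:**
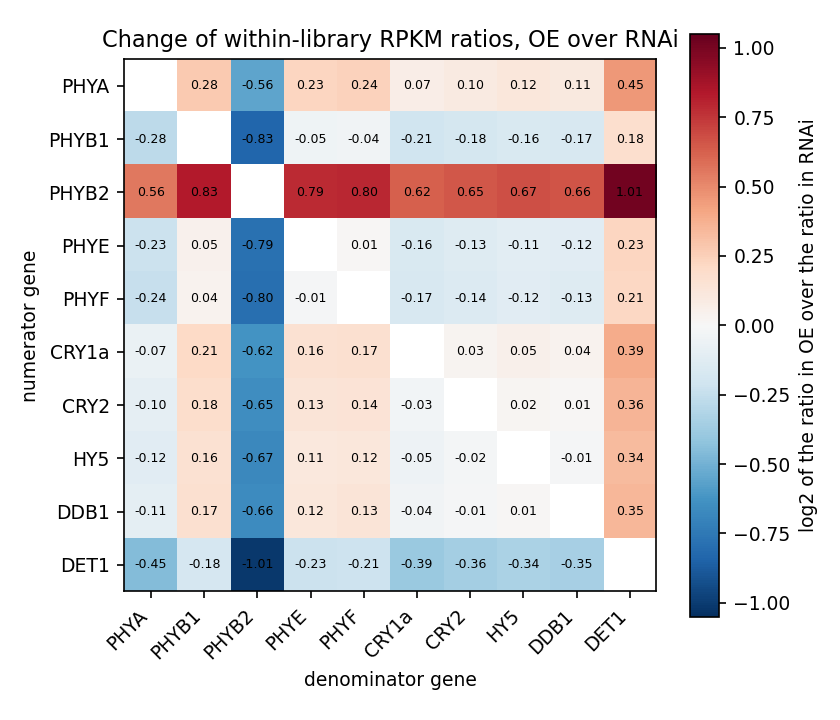
Log2 change, from RNAi to OE leaf, of the within-library RPKM ratio of each row gene to each column gene, without a pseudocount. The PHYB2 row and column hold the strongest colours, up to 1.01 against DET1. Cells among CRY1a, CRY2, HY5 and DDB1, grouped after their values were seen, are near 0.

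Other genes of the pathway were given by 22 identifiers listed from general knowledge of tomato light signalling, whose functions were not checked against an annotation. Of these, 21 reached a mean of 1 RPKM. Their median log2 difference was 0.17, below the 0.27 of the 10 members and close to the 0.13 of all compared genes, and 1 locus was past 2-fold in each direction. All 5 loci listed as other photoreceptors were higher in OE leaf as deposited, with log2 differences of 0.11 to 0.32, whereas with the trimmed mean 3 were higher and 2 lower. Of the 2 loci listed for synthesis of the phytochrome chromophore 1 was higher and 1 lower, at 0.30 and -0.02. The 3 loci listed as COP1 and CUL4, ubiquitin ligase components that act with DDB1 and DET1, lay between -0.05 and 0.17, with 2 higher as deposited and 1 with the trimmed mean. The 4 loci listed as downstream regulators lay between -0.13 and 0.74.

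The 2-fold differences both fell among the 8 loci listed as PIFs, bHLH factors that phytochromes bind and destabilise. Solyc03g115540.1.1 was at 7.89 RPKM in RNAi leaf and 18.04 RPKM in OE leaf, a log2 difference of 1.10 that came to 0.95 with the trimmed mean and 0.84 with a pseudocount of 5, within 2-fold. Solyc06g069600.1.1 was at 5.82 and 2.34 RPKM, a log2 difference of -1.03 that came to -1.14 with the trimmed mean and to -0.56, within 2-fold, with a pseudocount of 5. The other 5 compared loci of that list were within 2-fold, and 1 was at 0.09 and 0.8 RPKM, under the limit on low values. Of all compared genes 2.60% were past 2-fold on the higher side and 1.92% on the lower side.

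**Figure D5:**
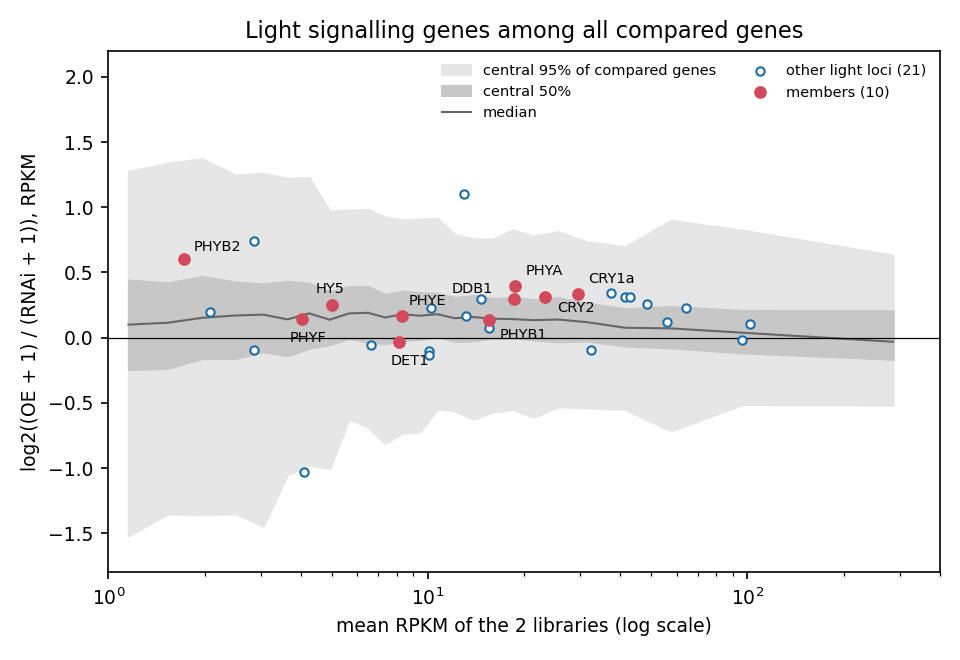
Log2 difference, overexpression over RNAi, against the mean RPKM of both libraries on a log axis, for the 10 members (red) and the 21 compared loci of the pathway list (blue, open). Grey bands give the central 95% and 50% of all compared genes at each level. PHYA, CRY1a, CRY2 and PHYB2 lie above the central 50%, DET1 at its lower edge, and 1 blue point lies past the 2-fold limit in each direction.

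The tissue of both libraries was checked with loci listed from general knowledge. All 9 loci listed as leaf mesophyll genes for photosynthesis were present at 41.17 RPKM or more. All 9 were lower in OE leaf, 8 after rescaling to the same RPKM sum, and they summed to 77856 RPKM in RNAi leaf and 66356 RPKM in OE leaf, a ratio of 0.85. Their log2 differences ran from -0.32 to -0.009. Among the 778 compared genes of the highest levels, with a median of 286 RPKM, the median log2 difference was -0.03, against 0.13 for all compared genes. Lower values in OE leaf were thus in part general at high levels. The 10 most abundant genes of the table held 12.4% and 11.0% of the RPKM sum. The 4 terpene synthase loci listed for glandular trichomes summed to 40.4 and 8.07 RPKM, with 3 lower and 1 higher in OE leaf. The higher locus was at 2.14 RPKM in RNAi leaf and 7.54 RPKM in OE leaf. The 3 lower loci were at 4.18 to 19.65 RPKM in RNAi leaf and at most 0.19 RPKM in OE leaf. Of the 4 floral organ loci 2 were listed at 0 in both libraries, the others reached at most 6.77 RPKM, and the single ripe fruit locus was at 0. In bulk leaf, fewer cells of a type and less RNA per cell cannot be told apart, and the part of these shifts in the members' values was not tested.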

How the data were processed

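RNA from 2 tomato leaf libraries was sequenced, 1 per group, with TRIzol extraction and Illumina library preparation per the labels' protocols. The deposited values are RPKM calculated by the authors, per the file headers, with 1 value per library and gene model. TopHat, a spliced aligner, appears among the tools of the submitters' processing notes. No version, build, annotation, counting program or strand setting is given in the sources used here.

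Read totals are unknown. Relative depth was estimated from 2589 genes with low but nonzero values in both libraries, scanned from 0.75 to 1.33. The best match gave 1 read 1.02 times the worth in OE leaf that it had in RNAi leaf. At that value 28.0% of these genes matched ratios of small whole read numbers, against a median of 4.02% over the scan. Relative depth was thus estimated as close, from a minority of these genes. Absolute depth and counting error remain unknown. RPKM sums were 945985 and 939089. Because RPKM are shares of a library, lower levels of the most abundant transcripts can raise the values of others. How far this entered the differences reported here was not tested.

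Differences, filter and pseudocount are described with the results, and a gene was counted as apart at 2-fold. The trimmed mean removed 30% of ratios and 5% of levels at each end. The procedure was tested on simulated data, with an assumed depth and counting error as the only noise. The planted changes were larger than that of any member and lay in genes of at least 5 RPKM. The simulation therefore does not show how well differences as small as those of the members are measured. Members and lists were chosen with earlier results of these data known, and all 10 members are named. Other loci of the pathway are given by identifier only where they were at least 2-fold apart. A planned comparison of member proteins was not run, as no sequence was used here. Python 3.11.15, numpy 2.4.6, pandas 2.3.3 and matplotlib 3.10.9 were used.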

Additional observations from a re-analysis of the deposited data

How the results depend on the processing

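The count of members at least 2-fold apart was 0 in both directions under the 7 alternatives of pseudocount, scaling and filter, and at a 1.5-fold limit 1 member, PHYB2, was higher. The 2 filter alternatives add little to this. Dropping the filter could not alter the count, since all members had passed it. A mean of at least 5 RPKM left out PHYB2 (mean 1.72) and PHYF (mean 4.03). Of 69 values for single members under the alternatives, including PHYB2 without a pseudocount, which was chosen after seeing the data (0.97), 2 reversed: PHYB1 after centring on the median (-0.0026) and after the trimmed mean (-0.012). A pseudocount or a filter cannot change the sign of a difference, so only the 3 rescalings could have reversed one, and most of the 69 values could not. The median log2 difference of the members stayed between 0.14 and 0.30 with pseudocounts of 0.1 and 5 and the 3 rescalings. Counts over all genes, from 506 higher and 373 lower, were 901 and 573 with a pseudocount of 0.1, 141 and 128 with 5, 222 and 155 at a mean of at least 5 RPKM, where fewer genes were compared, and 1823 and 893 at 1.5-fold. Genes higher in OE leaf were 57.6% of those 2-fold apart as deposited and 45.9% after the trimmed mean. No paired analysis was possible because each group has a single library, and no library could be left out. Depth was not given, so the counting error of PHYB2, the lowest member, is unknown.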

Other observations

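The members were also set beside their chromosomal neighbours, taken as the 5 nearest compared identifiers on each side. The 100 neighbours had a median log2 difference of 0.15, with 5 past 2-fold on the higher side in OE leaf and 1 on the lower side. Over all compared genes the median was 0.13, and 2.60% were past 2-fold on the higher side and 1.92% on the lower side. PHYB2, on chromosome 5, stood among the most varied neighbours, which ranged from -1.17 to 2.45 with a median of 0.04, and 8 of the 10 were below its 0.60. CRY2, on chromosome 9, was above 9 of its 10 neighbours, whose median was -0.05. PHYB1, on chromosome 1, was above only 2 of its neighbours, whose median was 0.25. DET1, also on chromosome 1, was above 4 of its neighbours, whose median was 0.15. Of the remaining members, PHYA, PHYE, HY5 and DDB1 were each above 7 of their 10 neighbours, CRY1a above 8 and PHYF above 6.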
